A study of Ovis aries with 41 samples.

Results

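SCD and 9 further genes of fatty acid synthesis, elongation and desaturation (FASN, ACACA, ACLY, ELOVL3, ELOVL5, ELOVL6, FADS1, FADS2 and SREBF1) were followed in tail skin of short- and long-tailed rams. They are 10 of the 31182 genes in the table of read counts, found by their symbols, and the set was chosen by the difference of SCD between the genotypes at the tail base, so that values of that comparison are given without a test. Skin was taken at the base, in the middle and at the tip of the tail from 7 Improved Jezersko-Solčava rams, 4 of genotype HOXB13 A/A and 3 of genotype HOXB13 D/D. The D allele is the derived one and carries an insertion in the promoter of HOXB13, and the A allele is ancestral. The rams had been excluded from breeding after a performance test and were slaughtered for meat, their skin was shaved before it was punched, and no age is given for each ram in the sources used here. D/D tails are the longer ones, and equal positions are therefore not at equal distances from the body in the 2 genotypes. Each ram gave 2 libraries per position, save ram 871869 (D/D), which had 1 at its mid-tail, and the 41 libraries were made from RNA selected on oligo(dT). The labels do not say whether the 2 libraries of a ram and position came from separate punches of skin or from the same RNA, and their counts were summed to 21 sums, 1 for each ram and position. Groups were compared over rams.

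De novo synthesis of fatty acids starts in the cytosol, where ATP citrate lyase (ACLY) cleaves citrate to acetyl-CoA, acetyl-CoA carboxylase (ACACA) makes malonyl-CoA from it, and fatty acid synthase (FASN) joins these units to palmitate. Elongases of the ELOVL family lengthen the chain in the endoplasmic reticulum, stearoyl-CoA desaturase (SCD) places the first double bond in saturated chains, and FADS1 and FADS2 desaturate polyunsaturated chains. SREBF1 encodes the transcription factor SREBP-1, which switches many of these genes on. In skin the pathway is known for the lipids of sebum, of the epidermal barrier and of subcutaneous fat.

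The sheep genome build ARS-UI_Ramb_v3.0 places SCD on chromosome 22 from 21026048 to 21038058 and ELOVL3 on the same chromosome from 22640654 to 22643791. FASN (50277419 to 50296144), ACLY (41787714 to 41830084), SREBF1 (34382401 to 34398512) and ACACA (13136279 to 13424655) lie on chromosome 11. FADS1 (36801061 to 36814713) and FADS2 (36909336 to 36946966) are close together on chromosome 21, ELOVL6 lies on chromosome 6 (15562118 to 15701183) and ELOVL5 on chromosome 20 (25068834 to 25134913). These are the bounds of the whole genes in RefSeq, and the counts are per gene.

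Library totals ranged from 9177395 to 23431409 counts. Levels are in CPM, a count scaled to the size of its library by TMM, and they were not compared between genes, since no transcript lengths were used. HOXB13 was at most 0.0432 CPM at the base and between 3.44 and 6.43 CPM at the tip of A/A rams, against 0.264 to 1.09 CPM in D/D rams, without overlap of the genotypes at the tip. Genes that mark the skin were present in every sum, with keratinocyte markers at 13851 to 44628 CPM and wool follicle markers at 1215 to 54201 CPM in all. In the A/A ram 835507 the summed levels of several cell type markers stood apart. Its sebaceous gland markers summed to 3921 CPM at the base, 2118 CPM at the mid-tail and 4367 CPM at the tip, where the other A/A rams and the D/D rams had 438 to 1367 CPM. Its adipocyte markers summed to 3694 to 4384 CPM against 689 to 1610 CPM in the other rams. Most of this was 1 gene, PLIN4, with 2953 CPM at the base, 2631 CPM at the mid-tail and 3022 CPM at the tip. The median log2 fold change of the 16 adipocyte markers between the genotypes at the base was -0.19 with this ram and -0.15 without it. Its wool follicle markers summed to 16855 CPM at the base, 3858 CPM at the mid-tail and 1215 CPM at the tip, where the others had 17217 to 54201 CPM. Of all markers in the file CD68, an immune cell marker, had a count of 0 in every library.

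SCD differed strongly between the 2 libraries of the same ram and position, which bears on every comparison of this gene. At the base, library 1 and library 2 of the A/A ram 871772 held 1275 and 88.1 CPM of SCD, those of ram 835507 held 590.4 and 68.9 CPM, those of ram 871784 held 254.9 and 119.5 CPM, and those of ram 871932 held 522.8 and 349.7 CPM. In D/D rams the order was turned, with 24.2 and 81.2 CPM in ram 871787, 88.0 and 125.2 CPM in ram 871868, and 40.3 and 130.8 CPM in ram 871869. Library 2 was therefore the lower of the pair in each A/A ram at the base and the higher in each D/D ram. Over all positions library 1 was higher in 10 of 12 A/A pairs, the exceptions being the mid-tail and the tip of ram 871772, and in 0 of 8 D/D pairs. A direction shared by all 8 D/D pairs was seen for 4.87% of the 15738 genes with a mean of at least 1 CPM. The root mean square of the log2 ratio of the 2 libraries was 1.71 for SCD over 20 pairs, higher than for 99.9% of these genes, whose median was 0.42.

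**Figure D1:**
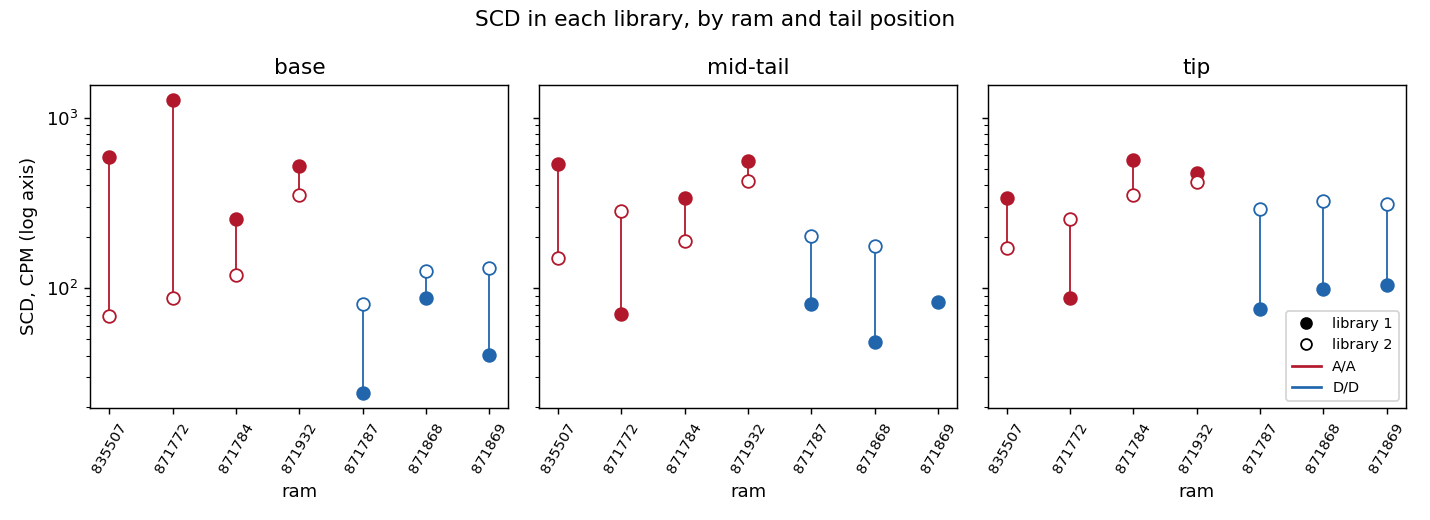
SCD level in CPM (log axis) in each of the 41 libraries, by ram, at each of the 3 positions; filled points are library 1, open points library 2, and a line joins the libraries of a ram and position. At the base the filled points of the A/A rams (red) lie between 254.9 and 1275 CPM and those of the D/D rams (blue) between 24.2 and 88.0 CPM, whereas the open points of both genotypes overlap.

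The other members differed less between libraries. The root mean square of the log2 ratio was 0.70 for FASN and 0.59 for ACACA, higher than for 92.5% and 81.6% of genes, and 0.22 for ACLY, higher than for 6.56%. The remaining 6 members lay between 0.27 (ELOVL5) and 0.52 (SREBF1). FASN was lower in library 1 in each of the 8 D/D pairs, and ELOVL3 was higher in library 1 in each of them. Across the 20 pairs the ratio of ACACA followed that of SCD with a Pearson r of 0.76, the ratio of FASN with 0.49 and that of ELOVL3 with -0.58. These correlations are descriptions over pairs of libraries that share rams and scaling. The genes whose ratio followed that of SCD most closely were NEK9 (r = 0.95), SETD2 (0.95), CBFA2T2 (0.94), EPAS1 (0.94) and PTPRJ (0.94), which were named after their values were seen and are on none of the lipid lists. The 192 genes with r over 0.8 had a median span on the genome of 97.7 kb, against 23.1 kb over all genes. In 17 of 20 pairs the library with more SCD was also the one with relatively more counts in genes of long span, measured as the sign of the correlation of all log2 ratios with the span, and these 2 values had r = 0.65 over the pairs. The summed endothelial markers followed SCD with r = 0.76 and the same direction in 16 of 20 pairs, the immune cell markers with 0.56 and the keratinocyte markers with -0.58, whereas the library total had r = 0.14. The share of the counts held by genes with a span of at least 100000 bases was taken in each sum. From base to tip its median was 10.2%, 10.7% and 10.2% in A/A rams. In D/D rams it was 9.17%, 9.31% and 9.23%. The median was higher in A/A at each position, and the ranges of the genotypes overlapped at each. At the base the share ran from 8.98% to 11.04% in A/A and from 8.87% to 9.29% in D/D. At the mid-tail it ran from 8.84% to 13.24% in A/A and from 9.27% to 9.54% in D/D. At the tip it ran from 9.53% to 13.47% in A/A and from 8.86% to 9.61% in D/D. The part of these measures in the SCD values was not tested.

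**Figure D2:**
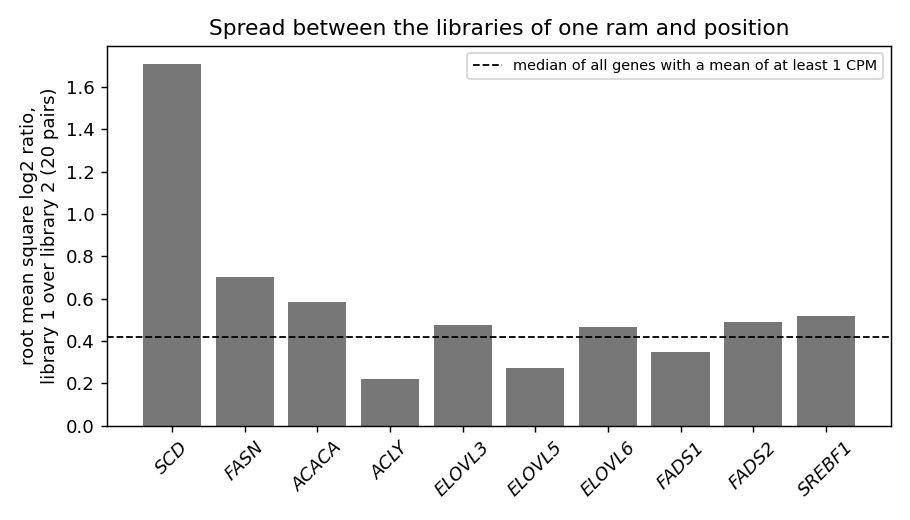
Root mean square of the log2 ratio of library 1 over library 2 across the 20 pairs of libraries of the same ram and position, 1 bar for each member; the dashed line is the median of all genes with a mean of at least 1 CPM. SCD stands at 1.71 against a median of 0.42, and ACLY, ELOVL5 and FADS1 lie below the line.

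At the tail base, the comparison by which the set was chosen, SCD was 416.3 ± 229.2 CPM in A/A (SD, n = 4) and 81.0 ± 30.1 CPM in D/D (SD, n = 3), a log2 fold change of 2.37. The sums of the A/A rams were 324.8 CPM (835507), 729.4 CPM (871772), 190.1 CPM (871784) and 420.7 CPM (871932), and those of the D/D rams were 53.0 CPM (871787), 112.8 CPM (871868) and 77.2 CPM (871869), so that the groups did not overlap. This separation came with the first libraries. With library 1 alone the mean log2 level of A/A was higher by 3.66, and with library 2 alone by 0.20, where A/A libraries ranged from 68.9 to 349.7 CPM and D/D libraries from 81.2 to 130.8 CPM. With both libraries this mean difference was 2.26, and it was between 1.93 and 2.58 when any single ram was left out. Bulk RNA cannot tell apart fewer cells of a type from less RNA per cell, for SCD as for every other gene here.

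The enzymes before SCD in the pathway had smaller differences at the base. FASN was 573.9 ± 220.8 CPM in A/A and 382.4 ± 124.8 CPM in D/D (log2 fold change 0.59), with A/A rams from 308.5 to 825.7 CPM and D/D rams from 280.5 to 521.6 CPM. ACACA was 77.2 ± 13.02 CPM in A/A and 57.3 ± 10.1 CPM in D/D (0.43). Its groups did not overlap, but the lowest A/A ram (63.8 CPM) and the highest D/D ram (63.2 CPM) nearly met, and with library 2 alone they overlapped. ACLY was 211.7 ± 47.9 CPM in A/A and 168.4 ± 19.6 CPM in D/D (0.33), with overlap. SREBF1 was 90.8 ± 19.2 CPM and 80.0 ± 15.9 CPM (0.19), also with overlap.

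Among the elongases, ELOVL6, which lengthens palmitate to stearate, was 266.6 ± 160.5 CPM in A/A and 139.4 ± 45.9 CPM in D/D at the base (log2 fold change 0.94). Its A/A rams were spread from 92.4 CPM (835507) to 448.0 CPM (871772), and the D/D rams from 87.1 to 173.0 CPM lay inside that range except for the lowest. ELOVL3, an elongase of very long saturated chains that is known from sebaceous glands, was 224.8 ± 163.7 CPM and 213.6 ± 131.8 CPM (0.07), and ELOVL5, which lengthens polyunsaturated chains, was 24.5 ± 6.22 CPM and 24.9 ± 0.904 CPM (-0.02). The desaturases FADS1 with 63.0 ± 27.4 CPM against 60.1 ± 19.2 CPM (0.08) and FADS2 with 12.6 ± 6.24 CPM against 11.5 ± 3.14 CPM (0.14) had similar means. In all, 9 of the 10 members had a positive log2 fold change and 2 of 10 did not overlap between the groups, where 4.71% of the 17738 genes did not overlap in either direction. These 2 were SCD, whose difference chose the set, and ACACA, by 63.8 against 63.2 CPM, so that the share of members is partly given by the choice. The median log2 fold change was 0.26 for the members and 0.01 for all genes. With library 1 alone 5 of 10 differences were positive and with library 2 alone 9 of 10, and 6 had the same sign in both.

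**Figure D3:**
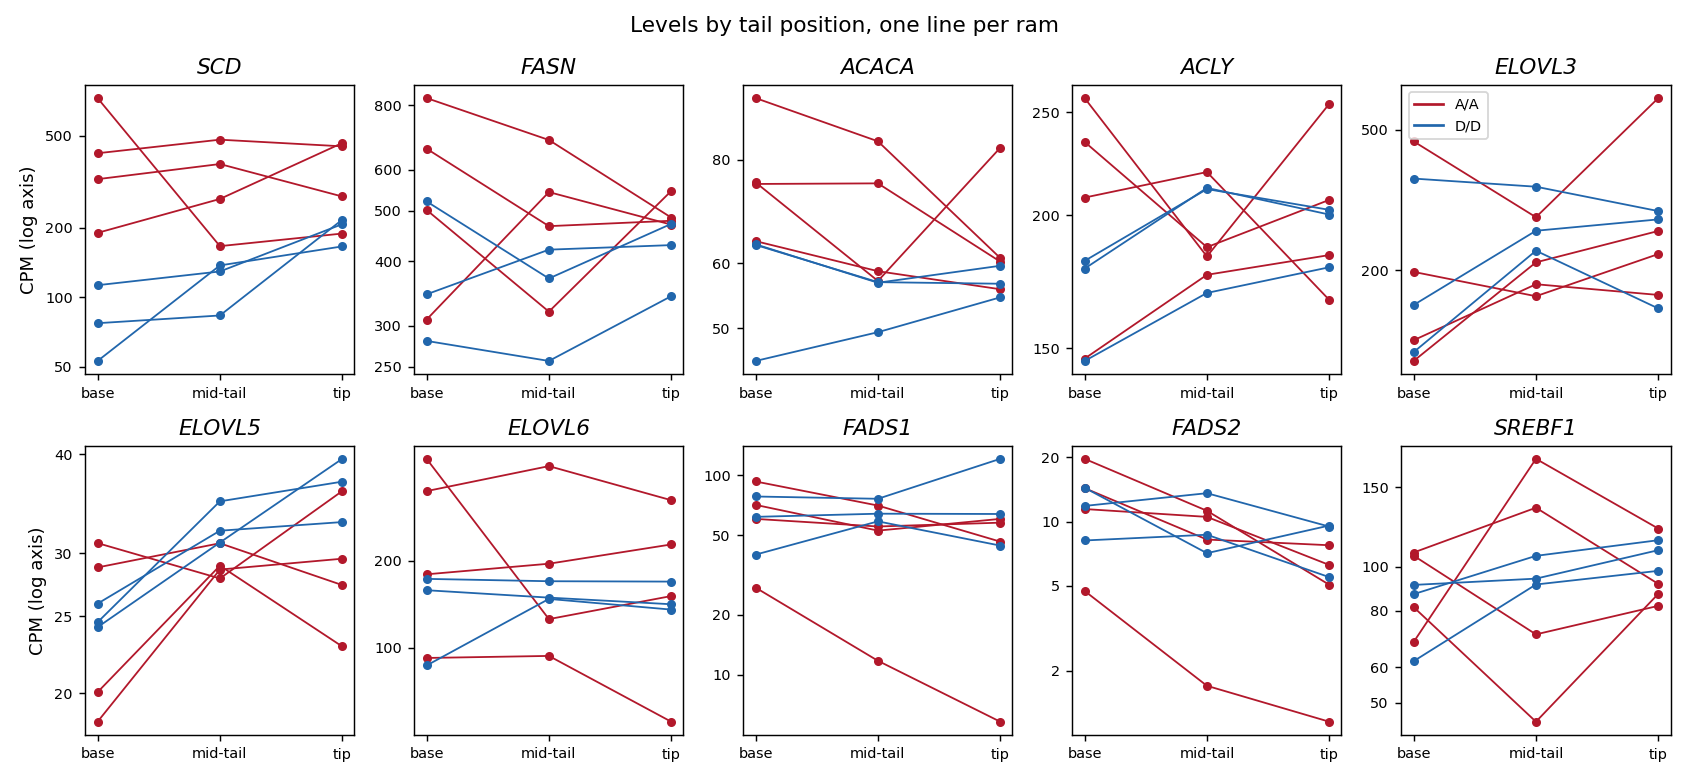
Level of each member in CPM (log axis) along the tail, from base to tip, 1 line for each of the 7 rams, A/A in red and D/D in blue, libraries summed. The SCD lines of A/A rams lie above those of D/D rams at the base and the mid-tail, and the FADS2 line ends lower at the tip than at the base in each of the 7 rams.

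The A/A and D/D rams were then compared at the mid-tail, in skin that had no part in the choice of the set but came from the same animals. SCD was 377.8, 166.6, 266.6 and 481.7 CPM in the A/A rams 835507, 871772, 871784 and 871932, and 137.4, 129.4 and 83.4 CPM in the D/D rams 871787, 871868 and 871869. All A/A rams lay above all D/D rams, with a log2 fold change of 1.48 (SE 0.37) that did not pass edgeR's quasi-likelihood test over all genes (unadjusted p = 0.00219, adjusted p = 0.848). An exact permutation test of SCD alone gave a difference of 1.39 on the log2 scale with a two-sided p = 0.0571, where 0.0286 was the smallest p possible for 4 against 3 rams. The lowest D/D value, that of ram 871869, came from library 1 only, the library with less SCD in each of the 8 D/D pairs. At the tip of this ram library 1 held 104.8 CPM and library 2 held 311.1 CPM. Without this ram the difference at the mid-tail was 1.17. Of all 17996 genes tested, 0 (0%) passed with edgeR, and 1014 had an unadjusted p under 0.05. DESeq2 on the same sums called 31 genes, SCD among them with an adjusted p = 0.0275, and limma-voom called 0. Over the 19 alternatives the adjusted p of SCD ranged from 0.0275 to 1.0. With library 1 alone the fold change in edgeR was 2.43 and with library 2 alone, which left 2 D/D rams, it was 0.47, and the genotypes overlapped in each of these.

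None of the other 9 members passed at the mid-tail by edgeR or DESeq2. FASN was 504.0 ± 152.6 CPM in A/A and 349.3 ± 84.1 CPM in D/D (log2 fold change 0.54, SE 0.30) and ACACA 68.7 ± 13.1 CPM and 54.4 ± 4.25 CPM (0.34, SE 0.22). ELOVL6 had a value of 0.43 (SE 0.44), SREBF1 of 0.14 (SE 0.40) and ACLY of -0.04 (SE 0.20). ELOVL3 (-0.38, SE 0.25), ELOVL5 (-0.16, SE 0.19), FADS1 (-0.47, SE 0.45) and FADS2 (-0.30, SE 0.52) had negative values. The groups did not overlap for 3 of 10 members, SCD and ACACA with A/A above and ELOVL5 with A/A below, against 8.17% of all genes in either direction. For ACACA the lowest A/A ram was at 57.1 CPM and the highest D/D ram at 56.9 CPM. For ELOVL5 the highest A/A ram was at 30.88 CPM and the lowest D/D ram at 30.95 CPM, and these narrow gaps closed with library 2 alone for ACACA and with either library alone for ELOVL5. The median over the members was 0.05 and over all genes 0.03.

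At the tip SCD was 273.3, 188.8, 465.8 and 450.7 CPM in the A/A rams 835507, 871772, 871784 and 871932, and 166.1, 207.4 and 216.7 CPM in the D/D rams 871787, 871868 and 871869. Ram 871772 lay within the D/D range and the other A/A rams lay above it. The log2 fold change was 0.81 (SE 0.32, unadjusted p = 0.0344, adjusted p = 0.458 from edgeR), and the exact permutation test gave a difference of 0.72 with a two-sided p = 0.171. With library 2 alone the sign turned to -0.12 in the exact test (p = 0.743), where library 1 alone gave 1.69 (p = 0.114). The test called 0 of 17842 genes (0%) with 1824 at an unadjusted p under 0.05, DESeq2 called 67 and limma-voom 0, with no member among them. FASN (0.26, SE 0.16), ACACA (0.20, SE 0.15), ACLY (0.08, SE 0.18), ELOVL3 (0.40, SE 0.46) and ELOVL6 (0.35, SE 0.48) had positive values at the tip. ELOVL5 (-0.32, SE 0.17), SREBF1 (-0.16, SE 0.16), FADS1 (-0.84, SE 0.67) and FADS2 (-0.70, SE 0.54) had negative ones. No member was free of overlap, against 15.2% of all genes, and the median was 0.14 over the members and 0.02 over all genes.

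**Figure D4:**
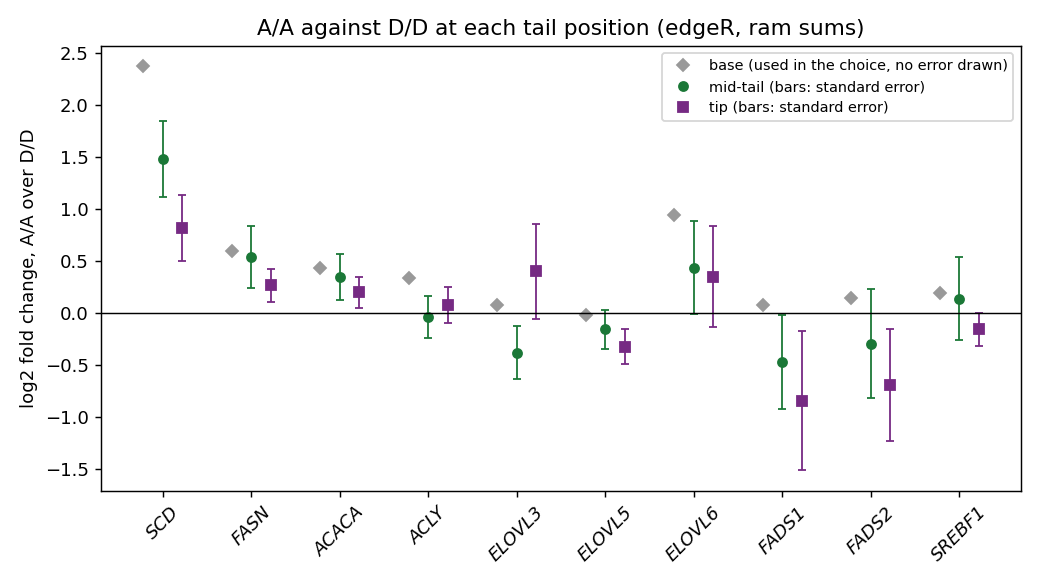
Fold change (log2, A/A relative to D/D) of each member at the tail base (grey diamonds, the comparison used in the choice of the set, drawn without error), the mid-tail (green) and the tip (violet), from edgeR on the sums of 4 A/A and 3 D/D rams; bars are 1 standard error. SCD is at 2.37 in base skin, at 1.48 in mid-tail skin and at 0.81 in tip skin, and FADS1 and FADS2 are below 0 at the mid-tail and the tip.

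Ordered by the group mean, SCD was highest in A/A at the base (416.3 CPM), then in A/A at the tip (344.7 ± 135.8 CPM) and the mid-tail (323.1 ± 136.4 CPM), then in D/D at the tip (196.7 ± 26.9 CPM) and the mid-tail (116.7 ± 29.1 CPM), and lowest in D/D at the base (81.0 CPM). The 3 A/A groups overlapped each other, each of them overlapped the D/D tip, and the D/D mid-tail overlapped the D/D base. The D/D tip did not overlap the D/D mid-tail in the sums, but the mid-tail of ram 871869 came from library 1 only. In library 1 alone this ram held 82.4 CPM at the mid-tail and 104.8 CPM at the tip. The D/D ranges then overlapped, with 48.3 to 82.4 CPM at the mid-tail and 75.3 to 104.8 CPM at the tip. With library 2 alone, which left 2 D/D rams at the mid-tail, they did not (176.9 to 203.1 against 291.2 to 324.9 CPM). The unpaired library also enters the change from mid-tail to tip given next. The change of SCD from mid-tail to tip was lower in A/A than in D/D by 0.66 on the log2 scale in the fit across all genes (SE 0.59, unadjusted p = 0.285, adjusted p = 1.0 from edgeR). None of the 10 members passed this test of the difference between the genotypes, as did 0 of 19444 genes (0%), with 412 at an unadjusted p under 0.05 and 1 gene, no member, called by DESeq2 and 0 by limma-voom.

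Along the tail of all 7 rams, FADS2, the first desaturase on the way to long polyunsaturated fatty acids, fell from base to tip. In the A/A rams it went from 4.73 to 1.15 CPM (835507), from 11.5 to 6.26 CPM (871772), from 14.4 to 7.75 CPM (871784) and from 19.7 to 5.06 CPM (871932). In the D/D rams it went from 8.16 to 5.49 CPM (871787), from 14.4 to 9.59 CPM (871868) and from 11.8 to 9.48 CPM (871869). The tip was lower in 7 of 7 rams, in library 1 and in library 2 alike. The log2 fold change with the ram as a block was -1.01 (SE 0.21, adjusted p = 0.00824 from edgeR), and 1 of the 10 members passed where 5.09% of all 19029 genes did. The call was lost with library 2 alone (log2 fold change -1.15, adjusted p = 0.0733) and without the ram block (adjusted p = 0.34), and it held in 16 of 18 alternatives. Counts of FADS2 were low, from 35 to 490 per ram and position. At the mid-tail FADS2 was 8.73 ± 3.77 CPM (n = 7) against 12.1 ± 4.80 CPM at the base, a log2 fold change of -0.55 (SE 0.21, adjusted p = 0.3 from edgeR), lower in 5 of 7 rams.

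The expression of FADS1, its neighbour on chromosome 21 that acts later in the same route, did not pass between base and tip (-0.36, SE 0.23, adjusted p = 0.444 from edgeR). In ram 835507 both genes were the lowest of all rams at each position. From base to tip FADS1 was at 27.4, 11.8 and 5.83 CPM and FADS2 at 4.73, 1.70 and 1.15 CPM. At the base the next lowest ram, 871787, held 40.1 CPM of FADS1 and 8.16 CPM of FADS2. At the tip the next lowest values were 44.5 CPM of FADS1 (871787) and 5.06 CPM of FADS2 (871932). Over the 21 sums their log2 levels had r = 0.91, and 0.60 over the 18 sums without that ram. Ram 835507 also had the most ELOVL3 of the A/A rams, with 463.7, 282.9 and 614.9 CPM. It had the least ELOVL6 of the A/A rams, with 92.4, 93.9 and 55.7 CPM. In this ram the summed sebaceous gland and adipocyte markers were high, most of the adipocyte sum being PLIN4. Its wool follicle markers were low at the mid-tail and tip. The part of these cell types in the levels was not tested.

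ELOVL5 had means of 24.7 ± 4.43 CPM at the base, 30.6 ± 2.40 CPM at the mid-tail and 32.1 ± 5.86 CPM at the tip (n = 7), with the tip above the base in 6 of 7 rams. Its log2 fold change of 0.38 (SE 0.11) at the tip missed the threshold in edgeR (adjusted p = 0.052) and passed in DESeq2 (adjusted p = 0.0199), with RLE scaling (0.0494) and without ram 835507 (0.0238). ELOVL3 had a value of 0.43 (SE 0.19, adjusted p = 0.209 from edgeR) and was higher at the tip in 6 of 7 rams. SCD, whose base values chose the set and which is therefore given without a test, had a log2 fold change of 0.43, of 0.87 without ram 871772, of 1.28 with library 2 alone and of -0.16 with library 1 alone. FASN (-0.02, SE 0.16), ACACA (-0.13, SE 0.11), ACLY (0.06, SE 0.11), ELOVL6 (-0.27, SE 0.22) and SREBF1 (0.21, SE 0.19) did not pass. Mid-tail against base called 0 of 10 members where 0.163% of genes passed, and tip against mid-tail called 0 of 10 where 0.0736% did. DESeq2 and limma-voom also called 0 members in both. In these comparisons the members with an unadjusted p under 0.05 were FADS2 and ELOVL5 between mid-tail and base and FADS2 (-0.45, SE 0.21) between tip and mid-tail.

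**Figure D5:**
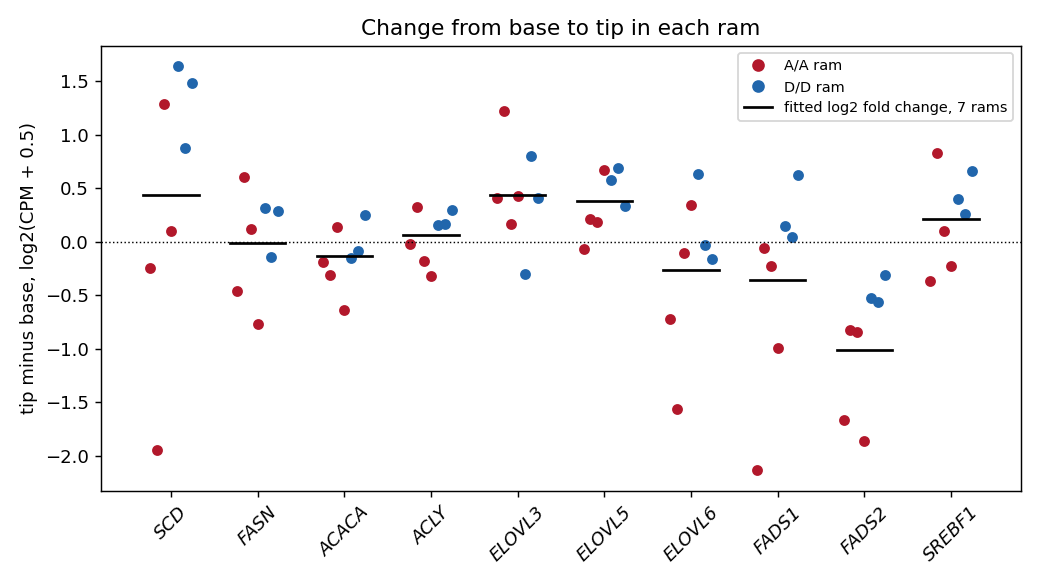
Difference of log2(CPM + 0.5) between tip and base for each member, 1 point for each ram (A/A red, D/D blue); the black line is the fitted log2 fold change over the 7 rams. The 7 points of FADS2 are below 0, whereas the points of SCD run from -1.95 to 1.64.

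The other genes of the pathway were described by lists. No gene of these lists (0) passed in edgeR between the genotypes, whether in mid-tail or tip skin. At the base, where no test was made, 6 of 12 genes that supply or use the precursors of FASN had positive log2 fold changes (median 0.03), led by ACACB (0.79), the carboxylase of the mitochondrial surface that guards oxidation. Of 14 further elongation and desaturation genes 7 were positive (median 0.05), with ELOVL7 at 0.82 and FADS3 at -0.64. Of 18 genes of fatty acid activation and triglyceride synthesis 14 were positive (median 0.14), with the acyl-CoA synthetases ACSL1 at 0.90 and ACSL5 at 0.87 and the phosphatidate phosphatase LPIN1 at 0.76. Ram 835507 carried several of these values. ACSL1 was 1027 CPM in that ram and 174.4 to 217.5 CPM in the other A/A rams (D/D 155.2 to 278.6 CPM), and without it the log2 fold change was -0.16 for ACSL1, 0.22 for ACSL5 and 0.05 for ELOVL7, while LPIN1 kept 0.84. Of 19 cholesterol synthesis genes 18 were positive (median 0.13), HSD17B7 (-0.30) being the exception, with SC5D at 0.37, but 5 of 19 were positive at the mid-tail (median -0.09) and 5 of 19 at the tip (-0.15). Without ram 835507, a setting chosen after the data were seen, 13 of these 19 genes and 10 of the 18 of activation and triglyceride synthesis were positive at the base, and 10 of 19 cholesterol genes at the mid-tail (median 0.02). Of 20 regulators of lipogenesis 9 were positive at the base (median -0.04), and of 18 fatty acid oxidation genes 7 (-0.04). The median over all genes at the base was 0.01.

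From base to tip, where 5.09% of all genes passed in either direction, 2 of 14 elongation and desaturation genes rose, namely ELOVL4, the elongase of very long chains of the epidermal barrier, and ELOVL2, which lengthens polyunsaturated chains. ELOVL4 went from 149.7 ± 103.1 to 252.1 ± 117.8 CPM (log2 fold change 0.85, adjusted p = 0.0182 from edgeR, higher in 7 of 7 rams) and ELOVL2 from 1.38 ± 0.305 to 2.29 ± 0.340 CPM (0.75, adjusted p = 0.0295, higher in 7 of 7). The triglyceride synthase DGAT2 rose from 73.9 ± 10.01 to 106.7 ± 32.0 CPM (0.49, adjusted p = 0.0267, higher in 6 of 7 rams), 1 of 18 genes of its list. Of 19 cholesterol synthesis genes 3 rose and 0 fell, with 16 positive values. Among them were SC5D (0.48, adjusted p = 0.0349 from edgeR) and SQLE (0.51, adjusted p = 0.0397). The long-chain acyl-CoA dehydrogenase ACADL fell from 56.1 ± 14.1 to 41.8 ± 19.9 CPM (-0.51, adjusted p = 0.0287, lower in 7 of 7 rams), 1 of 18 oxidation genes. No precursor gene (0 of 12) and no regulator (0 of 20) passed. Without ram 835507 ELOVL2 had an adjusted p of 0.0507 and ELOVL4, DGAT2, SC5D, SQLE and ACADL passed, and with library 2 alone only DGAT2 of these genes passed (adjusted p = 0.0451). With library 1 alone DGAT2 (adjusted p = 0.137) and ACADL (0.0811) were lost, and without the ram block all of these genes were. They passed in 10 (DGAT2, ELOVL2 and SQLE) to 13 (ELOVL4) of 18 alternatives in edgeR, DESeq2 and limma-voom.

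Some cell type markers also passed between base and tip, against the 5.09% of all genes. From base to tip 4 of 16 adipocyte markers fell and 13 of 16 were negative (AQP7, CIDEC, LIPE and PCK1 passed, with CIDEC at 12.2 ± 5.20 CPM at the base and 3.92 ± 3.12 CPM at the tip), 2 of 10 keratinocyte markers rose (KRT1 and KRT2), 2 of 13 sweat gland markers fell (KRT8 and KRT18) and 2 of 7 fibroblast markers fell (COL1A1 and COL3A1). Of the 10 sebaceous gland markers 0 passed and 7 were positive (median 0.43), of the 20 wool follicle markers 0 passed and 15 were negative (median -0.37), and of the 6 endothelial markers 0 passed. Of 8 skeletal muscle markers 1 fell (TTN) and of 9 immune cell markers 1 fell (CD14). Beside the fall of FADS2, the summed fibroblast markers were lower at the tip in 7 of 7 rams and the summed adipocyte markers in 5 of 7. The adipocyte sum was weighted to the abundant PLIN4 and FABP4. Of the 16 single adipocyte markers 13 were negative and 3 positive (median -1.36). The part of those cells in the FADS2 level was not tested. Between the genotypes 0 markers passed at the mid-tail or the tip, where 20 of 20 wool follicle markers were lower in A/A at both (median -0.86 and -0.73, and -0.52 with 20 of 20 and -0.34 with 19 of 20 without ram 835507) and 13 of 15 adipocyte markers were higher in A/A at the tip (median 1.45, and 0.53 without that ram). Summed adipocyte markers at the tip were 995.8 to 1398 CPM in A/A without ram 835507 and 1043 to 1262 CPM in D/D. At the base, sebaceous gland markers summed to 476.0 to 831.7 CPM in A/A without ram 835507 and to 438.2 to 1367 CPM in D/D, and endothelial markers to 265.8 to 410.4 CPM and 282.1 to 326.2 CPM.

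The genes whose log2 level was most like that of SCD over the 21 sums were PEG10 (r = 0.92), NUDT9 (0.87), MSI2 (0.84), THRB (0.82), PSD3 (0.82), BLOC1S6 (0.81), TJP1 (0.81), PRDM2 (0.81), INO80 (0.80) and AMOTL1 (0.78), among genes with a symbol and a mean of at least 1 CPM. THRB was also among the 10 genes whose library ratios followed that of SCD most closely (0.93). The sums share rams, libraries and scaling, and the r values describe them without a test. Of the members, ACACA (0.58) and FASN (0.48) were most like SCD and FADS2 (-0.20) and ELOVL3 (-0.19) least, but without ram 835507 the order changed to ELOVL6 (0.68, from 0.37 with that ram), ACACA (0.64) and FASN (0.46), with ELOVL3 at -0.46 and FADS2 at -0.02. FASN and ACACA had r = 0.72 with each other and 0.79 without ram 835507. ELOVL3 had r = -0.70 with ELOVL6 and -0.70 with FADS1, which went to -0.50 and -0.51 without ram 835507. SREBF1 had r = 0.55 with FASN and -0.02 with SCD.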

How the data were processed

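Skin RNA was analysed at 3 tail positions in 7 rams. The members and lists were chosen with earlier results of these data known. The deposited values are raw counts per RefSeq gene made by the authors with ContextMap and BWA on ARS-UI_Ramb_v3.0 and featureCounts by strand, after FastQC 0.11.9. The authors' 14 tip columns are named estimated count in the unit table only because a check read their names as positions. They hold whole counts, which rounding left as they were. Here the libraries that share a ram and a position were added and tested in edgeR 4.0.16 (R 4.3.3) by the quasi-likelihood test after TMM and filterByExpr, with the ram as block between positions, Benjamini-Hochberg adjustment over all genes and a call at an adjusted p under 0.05. All 10 members passed the filter in each comparison. Exact tests used log2(CPM + 0.5). Sums of the same ram deviated together, with correlations from 0.0516 to 0.853 and over 0.1 in 20 of 21 pairs. Alternatives were DESeq2 1.42.0, limma-voom (limma 3.58.1), other scaling and filters, single libraries, no block, and each ram left out. Each library alone was added to the edgeR fits after the data were seen. Of 227 genes in 15 lists 207 matched a symbol. Genes were named from each list by the smallest p (up to 3), or at the base by the largest fold change among genes with a mean of at least 1 CPM, and from all genes the 10 most correlated with SCD. The tests were checked on simulated counts. Between the genotypes the p-values measure spread between rams. Between positions, with the ram as block, they measure how far the changes vary from ram to ram. With single libraries they also hold the spread between libraries of a ram. Depth limits low genes such as FADS2. Some genes of the lists are counted but not reported here by name.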

Additional observations from a re-analysis of the deposited data

Results flagged for a closer look

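FADS1 is listed because every ram of a genotype moved in the same direction from base to tip and the genotypes moved in opposite ones. The mean change of log2(CPM + 0.5) was -0.86 in A/A, lower at the tip in 4 of 4 rams, and 0.27 in D/D, higher in 3 of 3 rams. In D/D the change was small in rams 871868 (61.9 to 64.0 CPM) and 871787 (40.1 to 44.5 CPM). The opposite directions held in neither library alone. With library 1 alone 2 of 3 D/D rams were lower at the tip, and with library 2 alone 1 of 4 A/A rams was higher. Without ram 835507 the mean change of A/A was -0.43. The difference was not tested, since it shares the base skin by which the set was chosen. From mid-tail to tip, where it could be tested, the difference between the genotypes was -0.38 (SE 0.39, adjusted p = 1.0 from edgeR). FADS1 of ram 835507 stood apart from the other 3 A/A rams by Dixon's criterion on the log2(CPM + 0.5) scale, with values of 3.62 (mid-tail) and 2.66 (tail tip). These were 2 of the 30 sets of values examined on that scale, where chance gives about 1 in 20, and on the CPM scale 0 of 30 had a ram apart.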

How the results depend on the processing

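Of 153 alternative values of the main results, 138 kept the direction and the side of the threshold, or a count within 1.5 times. For tip against base the count of members called was 1, and it was 2 with DESeq2, RLE scaling, library totals only, 1 CPM in 3 sums as the filter, single libraries, an adjusted p under 0.1 and library 1 alone, in each case with ELOVL5 added to FADS2. With library 2 alone FADS2 was lost, and the only member called was SCD, whose base values chose the set, so that its call is not read as a result. Leaving out single rams gave 1 to 3, the 3 without ram 871772, and these counts run over SCD as well. The replicate block of the ram mattered, since without it the count was 0 and 156 instead of 968 genes passed. At the mid-tail DESeq2 called 1 member (SCD). For mid-tail against base single libraries called 1 (ELOVL5). With the library number as replicate block 0 members passed between genotypes at the mid-tail and the tip. The difference of SCD at the base was 3.66 with library 1 alone and 0.20 with library 2 alone. At the tip it was -0.12 with library 2 alone (-0.0041 in edgeR), and the change of SCD from base to tip was -0.16 with library 1 alone. The cause was not tested. With 1 ram left out the difference of SCD was 1.93 to 2.58 at the base, 1.16 to 1.67 at the mid-tail and 0.545 to 0.979 at the tip, and the exact test then cannot go below p = 0.1 (3 A/A rams left) or 0.0667 (2 D/D rams left). Which of the 2 libraries of a ram is nearer to the skin's SCD level cannot be told from the counts.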
